A study of Mus musculus with 15 samples.

Results

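MM3MG cells are a line of normal mammary epithelium that came from a BALB/c mouse. MM3MG-Her2 cells are this line after transduction with pLSXN-Neu retroviral particles. Small RNA from 3 libraries of each line was compared, 6 of the 15 libraries of the series, and every difference is given as MM3MG-Her2 minus MM3MG. The comparison takes in all mature miRNAs read in these libraries: inserts of 18 to 26 bases were assigned to the arms of mouse miRNA hairpins by their first 18 bases, and their reads were summed per arm. This gave 689 hairpin arms with at least 1 read, of which 229 had enough reads to be tested. The aim of the series was to find miRNAs acting on the progesterone receptor in lines with Her2 and in the particles those lines secrete. Both lines grew in DMEM with 10% FCS, so serum is common to both groups. No empty-vector line is among the samples used here, so an effect of Neu and an effect of the transduction itself cannot be told apart. The sources used here do not say whether the transduced line is a clone or a pool, nor whether the replicates are separate cultures. The p-values therefore measure the spread between these samples, which may be technical. Neu itself is expressed from an mRNA, and small RNA reads do not check it.

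A miRNA is cut from a hairpin precursor, and one or both arms of the hairpin enter an Argonaute protein, where the seed near the 5′ end pairs with target mRNAs. miRNAs with the same seed share most of their predicted targets, and hairpins that lie close together are often cut from the same transcript. Neu is the rat form of the receptor tyrosine kinase Her2 (ErbB2), which signals through the MAP kinase and PI3 kinase pathways and drives a class of breast tumours.

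The mature sequences on which the results turn are shown 5′ to 3′ with the seed, bases 2 to 8, in capitals (RefSeq, GRCm38.p6). The first set comes from the imprinted region of chromosome 12, where every tested miRNA fell.
miR-127-3p: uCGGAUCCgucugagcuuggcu
miR-136-3p: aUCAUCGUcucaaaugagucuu
miR-379-5p: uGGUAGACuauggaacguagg
miR-411-5p: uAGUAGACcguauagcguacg
The next pairs share a seed within each pair. Within their first 18 bases, miR-10a-5p and miR-10b-5p differ only at position 12, counted from the 5′ end (U12A).
miR-10a-5p: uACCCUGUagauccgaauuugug
miR-10b-5p: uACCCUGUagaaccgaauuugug
miR-146a-5p: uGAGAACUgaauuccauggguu
miR-146b-5p: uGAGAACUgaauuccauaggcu
The miR-17-92 cluster and its paralogs are shown for the pair of seeds that is followed below as families.
miR-92a-3p: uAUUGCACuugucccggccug
miR-25-3p: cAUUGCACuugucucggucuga
miR-17-5p: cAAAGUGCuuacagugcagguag
miR-20a-5p: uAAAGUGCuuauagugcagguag
miR-93-5p: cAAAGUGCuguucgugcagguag
miR-106b-5p: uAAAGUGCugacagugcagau
Among the other large rises, miR-132-3p and miR-212-3p share a seed.
miR-7a-5p: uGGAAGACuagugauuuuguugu
miR-503-5p: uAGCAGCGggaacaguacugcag
miR-132-3p: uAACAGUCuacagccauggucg
miR-212-3p: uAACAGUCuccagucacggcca
miR-155-5p: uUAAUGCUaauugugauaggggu
The miR-30 members share a seed too, and miR-21a-5p was the most abundant miRNA of both lines.
miR-30a-5p: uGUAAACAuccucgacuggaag
miR-30e-5p: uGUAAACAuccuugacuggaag
miR-30c-5p: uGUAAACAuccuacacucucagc
miR-21a-5p: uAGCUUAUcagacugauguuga
miR-9-5p: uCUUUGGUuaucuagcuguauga
Both arms of miR-125b and miR-181a are shown because the ratio of their arms differed between the lines, and miR-182-5p because its reads differed in length.
miR-125b-5p: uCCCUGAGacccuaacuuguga
miR-125b-1-3p: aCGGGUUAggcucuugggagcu
miR-181a-5p: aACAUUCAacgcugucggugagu
miR-181a-1-3p: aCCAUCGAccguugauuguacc
miR-182-5p: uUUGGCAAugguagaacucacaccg

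Total reads lay between 341106 and 643361 per library, and miRNA reads numbered 300687, 502369 and 357068 in MM3MG replicates 1, 2 and 3 and 230618, 259502 and 175216 in MM3MG-Her2. miRNAs took 76.3% ± 3.70 (SD, n = 3) of reads in MM3MG and 51.9% ± 2.42 in MM3MG-Her2, without overlap (exact two-sided permutation test, p = 0.1, the smallest that 3 against 3 libraries allows). Levels are given as reads in 1000000 miRNA reads of a library (CPM), a scale that leaves out the reads on other RNA. Against the epithelial label, the arms of the miR-200 family, miR-203 and miR-205, which mark epithelium, summed to 25.9 to 44.8 CPM in MM3MG and 11.6 to 39.95 CPM in MM3MG-Her2. Of the 7 such arms with any read, 0 had enough to be tested. miRNAs of mesenchymal and stromal cells (miR-143, miR-145, miR-199, miR-214 and miR-152) summed to 180940 to 195279 CPM in MM3MG and 105336 to 109692 CPM in MM3MG-Her2. Those of liver and embryonic stem cells were at or near 0, and endothelial miR-126 lay between 19.95 and 53.2 CPM in all 6 libraries. The part of other cell types in the results was not tested, and in bulk RNA fewer cells of a type and less RNA per cell cannot be told apart.

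Of the 229 tested miRNAs, 157 differed between the lines (68.6%; edgeR quasi-likelihood test, Benjamini-Hochberg adjusted p under 0.05). Of these, 71 rose (31.0% of those tested) and 86 fell (37.6%), and the median log2 fold change over all tested was −0.08. For 169 miRNAs (73.8%) the 3 libraries of one line did not overlap those of the other. A family's count of changed members is given below beside its size and its median, to be read against these shares. Each log2 fold change comes from this fit and stands with its standard error (SE), with n = 3 libraries a group, and "rose" and "fell" mean an adjusted p under 0.05. Without scaling beyond the miRNA reads, all changes moved up by a median of 0.10 on the log2 scale, and 0 of the 157 changed sign.

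**Figure D1:**
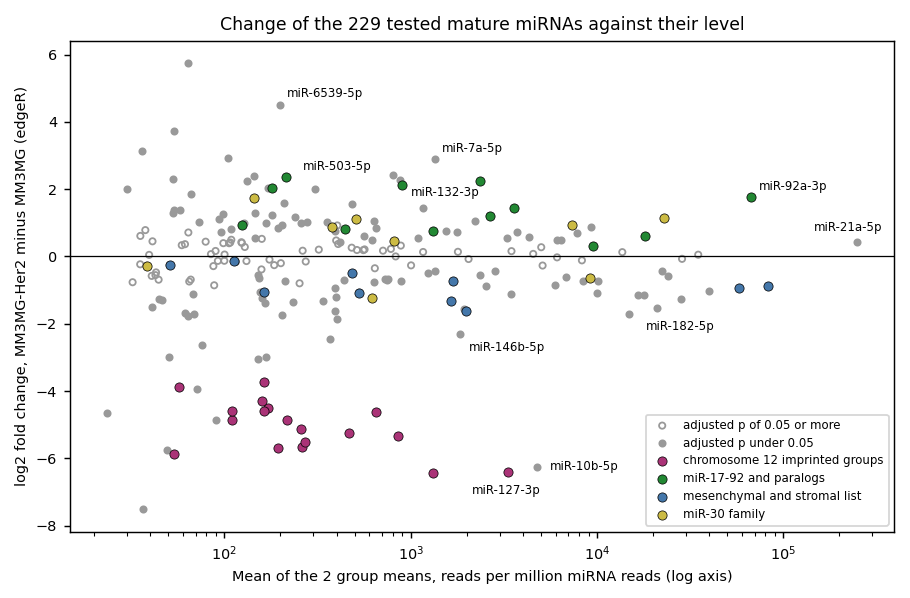
Each point is 1 of the 229 tested miRNAs, placed by its mean level (CPM, log axis) and its edgeR log2 fold change, MM3MG-Her2 minus MM3MG, with 4 groups in colour. The imprinted groups of chromosome 12 lie between −6.45 and −3.72, below nearly all other points, and miR-92a-3p and miR-21a-5p are the abundant miRNAs above 0.

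Of the 10 largest falls of miRNAs that reached a mean of 100 CPM in a line, 9 came from the imprinted region of chromosome 12 between Dlk1 and Dio3, whose miRNAs are expressed from the maternal chromosome, early in development and in the brain. Between the first and the last hairpin of its clusters (GRCm38 chr12:109563692-109747960) lie 59 named hairpins, and 19 of their arms were tested. All 19 fell, with log2 fold changes between −6.45 and −3.72 and a median of −4.86, against −0.08 for all tested miRNAs. Arms of this region were tested because of their reads in MM3MG, so a fall was the change that the filter let through. The sum over all 72 arms with reads does not depend on that filter. It was 19123, 17161 and 17708 CPM in the 3 MM3MG libraries and 481, 424 and 394 CPM in MM3MG-Her2, and the groups lay far apart. The 53 untested arms had 773 reads in MM3MG and 22 in MM3MG-Her2.

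Within the region, the group processed from the transcript antisense to Rtl1 is known to lower Rtl1 mRNA. miR-127-3p, its most abundant member (hairpin GRCm38 chr12:109592846-109592915, intergenic in GENCODE M21), had 7523, 5834 and 6343 CPM in MM3MG and 104, 84.8 and 57.1 CPM in MM3MG-Her2. Its log2 fold change was −6.41 (SE 0.23, adjusted p = 8.5e-11). The other tested members were miR-127-5p (−5.51), miR-136-3p (−5.66), miR-434-5p (−5.68) and miR-434-3p (−4.86), so 5 of 5 fell. The larger miR-379/410 cluster lies downstream, and 13 of 13 tested arms fell, with a median of −4.63. miR-379-5p (GRCm38 chr12:109709060-109709125) had 3289, 2309 and 2165 CPM in MM3MG and 30.4, 26.98 and 39.95 CPM in MM3MG-Her2, a log2 fold change of −6.45 (SE 0.28, adjusted p = 3.2e-10). miR-411-5p went from 1666 ± 204 CPM (SD, n = 3) to 44.0 ± 4.81, miR-541-5p from 1248 ± 106.4 to 53.0 ± 10.9, and miR-381-3p from 907 ± 123 to 24.04 ± 11.8. The smallest fall in the cluster was that of miR-409-3p (−3.72), which still had 17.3, 19.3 and 39.95 CPM in the 3 MM3MG-Her2 libraries. Between both groups, miR-341-3p in an intron of Rian, a member of neither list, fell by 3.93 on the log2 scale. No tested arm of the region overlapped between the lines. With so few reads left in MM3MG-Her2, single folds are loose: without MM3MG-Her2 replicate 1 the log2 fold changes of miR-434-5p, miR-382-3p and miR-410-3p were −6.33, −5.51 and −4.52, against −5.68, −4.86 and −3.87 with it. Among inserts of 20 to 24 bases, miR-541-5p stood at −5.82 in place of −4.63.

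**Figure D2:**
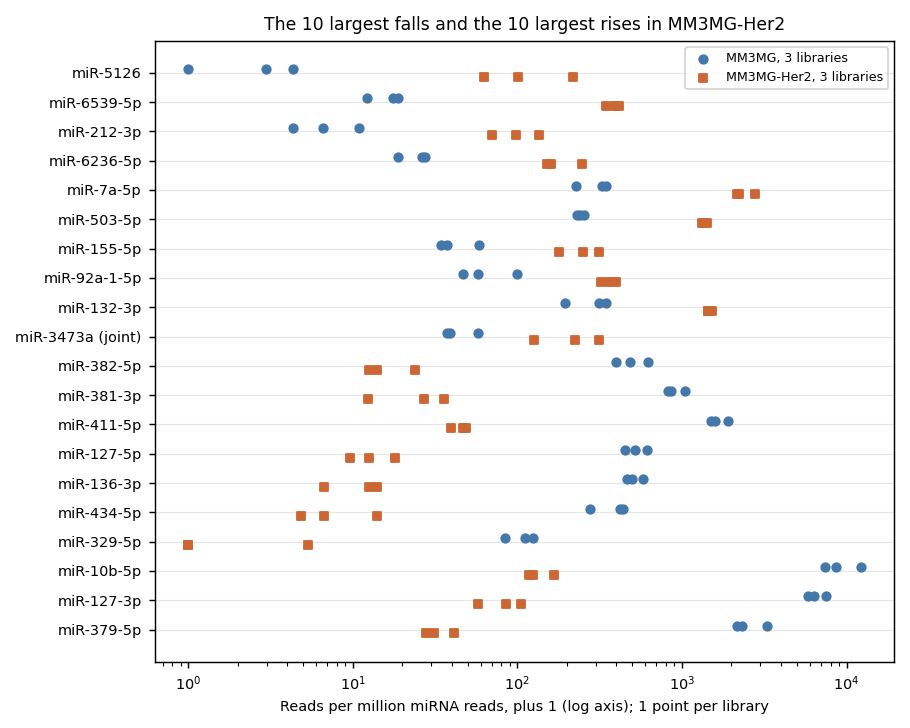
The 10 largest falls (lower rows) and the 10 largest rises (upper rows) among miRNAs that passed the test, had at least 100 CPM in either line and did not overlap, with 1 point per library on a log axis of CPM plus 1. Of the 10 falls, 9 are from chromosome 12, and the other is miR-10b-5p.

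Outside chromosome 12, the largest fall of any miRNA that reached 100 CPM was that of miR-10b-5p, cut from a hairpin within the Hoxd cluster and known for promoting invasion in breast cancer models. Its hairpin (GRCm38 chr2:74726070-74726137) lies in an intron of Hoxd3 and Hoxd4. It had 12202, 8637 and 7382 CPM in MM3MG and 117, 123 and 166 CPM in MM3MG-Her2, a log2 fold change of −6.25 (SE 0.28, adjusted p = 7.7e-09). Its paralog miR-10a-5p, from the Hoxb cluster, had 34099, 26017 and 24410 CPM against 30544, 28389 and 28045, with overlap and a log2 fold change of −0.07 (SE 0.15, adjusted p = 0.67), whose sign turned under other scalings. The miR-10 seed family as a whole went from 37561 ± 7677 to 29120 ± 1336 CPM and did not pass (adjusted p = 0.12). The base at position 12 tells the paralogs apart, so misread bases of miR-10a-5p can be counted as miR-10b-5p. In MM3MG-Her2, 24, 29 and 25 reads carried the base of miR-10b-5p (U12A), while 7, 3 and 9 carried U12C and 2, 1 and 2 carried U12G, bases that neither miRNA has. Of 7 tested arms of Hox clusters, 1 rose, 1 fell and 5 did not pass (median 0.13). The rise was that of miR-196a-5p, from 2570 ± 491 to 4036 ± 191 CPM (0.56, SE 0.13, adjusted p = 0.0018).

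A few further miRNAs were nearly lost. miR-146a-5p, a brake on NF-kB signaling that lowers Traf6 and Irak1, had 83 reads over the MM3MG libraries (83.1, 63.7 and 72.8 CPM) and 0 in MM3MG-Her2. Against a floor of 3 reads over the group it was at least 15.9-fold lower. miR-146b-5p, which shares its seed and lies in an intron of Mfsd13a, fell from 3233, 2884 and 2929 CPM to 681, 636 and 639 CPM (−2.32, SE 0.14, adjusted p = 8.9e-09). Their seed family fell by 2.11 on the log2 scale. miR-155-5p, another miRNA of NF-kB signaling, went the other way, from 36.6, 57.7 and 33.6 CPM to 312, 250 and 177 CPM (2.40, SE 0.27, adjusted p = 3.2e-06). The other miRNAs with at most 3 reads in one line and at least 50 in the other were picked out after their values had been seen. miR-455-5p (in an intron of Col27a1) had 111 reads in MM3MG and 1 in MM3MG-Her2, 63.7 times as many per miRNA read (95% interval from counting 11.2 to 2540). miR-873a-5p had 52 and 1 reads, 29.8 times as many (5.12 to 1200), and miR-329-5p of chromosome 12 had 119 and 1, 68.2 times as many (12 to 2720). Other miRNAs of that chromosome were of the same kind. miR-369-3p had 52 and 2 reads, 14.9 times as many (95% lower bound 3.93), and miR-376b-3p 51 and 0, at least 9.75-fold lower. Such intervals cover counting error only: the libraries were amplified without molecular identifiers, so 2 reads can stem from 1 molecule. In the same direction but with more reads left, miR-138-5p fell from 175 ± 28.7 to 5.92 ± 1.70 CPM (−4.87). The near-identical miR-1843a-5p and miR-1843b-5p fell by 3.04 and 2.98 on the log2 scale, and both arms of miR-708 by 2.62 (5p) and 2.45 (3p). The last 4 also were chosen after their values had been seen. The hairpin of miR-1843a overlaps an exon of Scarna3b, a scaRNA gene, and the part of scaRNA fragments in its fall was not tested.

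The polycistron of miR-17-92, a target of MYC that limits apoptosis and the G1 checkpoint, stood on the other side. Of 12 tested arms of this cluster and its paralogs, 10 rose and 0 fell, with a median of 1.32. Summed over all its arms, the group went from 53757 to 59287 CPM in the MM3MG libraries to 147749 to 161768 CPM in MM3MG-Her2. miR-92a-3p, the second most abundant miRNA in MM3MG-Her2, had 25216, 30314 and 31294 CPM in MM3MG and 107719, 111190 and 98033 CPM in MM3MG-Her2. Its log2 fold change was 1.77 (SE 0.12, adjusted p = 2.5e-08). miR-20a-5p went from 652, 932 and 762 CPM to 3989, 4135 and 3670 CPM (2.23), and miR-17-5p from 315 ± 72.8 to 1486 ± 144.8 CPM (2.14). miR-18a-5p rose by 2.03 and miR-92a-1-5p, the passenger arm, by 2.35 on the log2 scale. The members of the group did not rise alike. miR-19b-3p, which like miR-92a-3p has 2 hairpin copies that its reads cannot tell apart (1 of them in Mir17hg at GRCm38 chr14:115044305-115044391), had 12405, 9433 and 2745 CPM in MM3MG and 11356, 10046 and 11278 CPM in MM3MG-Her2 (0.30, SE 0.58, adjusted p = 0.65). MM3MG replicate 3 was low, and without it the log2 fold change was −0.10. miR-19a-3p had 2252, 1720 and 611 CPM in MM3MG and 3686, 3649 and 4018 CPM in MM3MG-Her2 without overlap (1.20, adjusted p = 0.079), and without MM3MG replicate 3 it passed at 0.84 (adjusted p = 0.00039).

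The paralog cluster miR-106b/93/25 lies within Mcm7, a helicase gene of DNA replication, and 4 of its 4 tested arms rose. miR-93-5p went from 1636, 1999 and 1874 CPM to 5780, 5071 and 5234 CPM (1.45, SE 0.12), miR-25-3p from 13646 ± 850 to 22360 ± 1057 CPM (0.61) and miR-106b-5p from 309 ± 6.51 to 583 ± 5.93 CPM (0.82). Of 178 seed families tested, 131 differed (73.6%), 68 rose (38.2%) and 63 fell (35.4%). The family of miR-17-5p, miR-20a-5p, miR-93-5p and miR-106b-5p went from 3240 ± 380 to 11359 ± 589 CPM (1.94, SE 0.11, adjusted p = 5e-10). The family of miR-92a-3p and miR-25-3p, with miR-92b-3p and miR-32-5p, went from 42694 ± 3912 to 128199 ± 7779 CPM (1.72, SE 0.11, adjusted p = 2.3e-09). The fit of seed families has its own scaling, under which miR-7a-5p, the sole member of its family, rose by 3.13 in place of 2.90.

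Other families known to act on cell cycle mRNAs had members on both sides. Of 7 tested arms of the miR-15/16 family, which lowers cyclin and Bcl2 mRNAs, 5 rose and 1 fell (median 1.01). Among the rises, miR-15b-3p and miR-16-2-3p had only 37 and 34 reads over the MM3MG libraries. Both were tested because of their reads in MM3MG-Her2, so a rise was the change that the filter let through. The fall, that of miR-195a-5p with 19 reads over MM3MG-Her2, was let through by its reads in MM3MG. miR-16-5p went from 2734, 3159 and 2204 CPM to 4839, 4867 and 4623 CPM (0.72, SE 0.14), miR-15b-5p from 174 ± 32.5 to 378.1 ± 40.4 CPM (1.01), while miR-195a-5p fell from 64.5 ± 16.7 to 27.5 ± 13.2 CPM (−1.29). In the cluster of miR-322 and miR-503 of the X chromosome, known from mammary involution, 4 of 8 tested arms rose and 1 fell (median 0.36). One of the rises, miR-450b-5p, had 32 reads over the MM3MG libraries and was tested because of its reads in MM3MG-Her2. miR-503-5p led the cluster with 239, 255 and 230 CPM in MM3MG and 1427, 1368 and 1330 CPM in MM3MG-Her2 (2.41, SE 0.15, adjusted p = 7.9e-09). Its neighbour miR-322-5p rose less, from 854 ± 42.1 to 1340 ± 55.2 CPM (0.55), and miR-450a-5p fell (−1.06). miR-221 and miR-222, which lower the cell cycle inhibitor p27, had 3 of 4 arms up, of which miR-221-5p did not pass among inserts of 20 to 24 bases (0.04, adjusted p = 0.91). miR-222-3p went from 5688 ± 899 to 9882 ± 1607 CPM (0.69), and miR-221-3p had 5032, 5472 and 5702 CPM against 4687, 5148 and 4572 CPM with overlap (−0.27, adjusted p = 0.058; without MM3MG replicate 1 it passed, at −0.30).

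**Figure D3:**
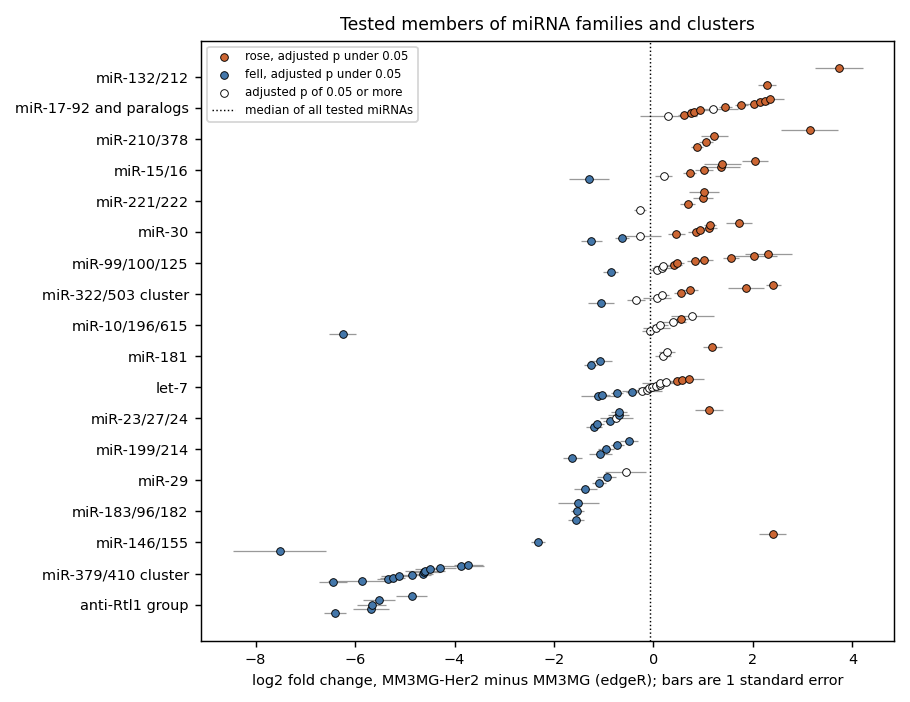
Each point is 1 tested miRNA arm of a family or cluster, placed by its log2 fold change (MM3MG-Her2 minus MM3MG) with a bar of 1 SE, and filled where the adjusted p was under 0.05. The 18 arms of the anti-Rtl1 group and the miR-379/410 cluster lie at −3.72 or lower, miR-17-92 and its paralogs between 0.30 and 2.35, and families such as let-7, miR-30 and miR-181 have members on both sides of the dotted median of all tested miRNAs.

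Among single miRNAs, miR-7a-5p had the largest rise of those above 1000 CPM in either line. It is known to lower EGFR and other members of that signaling pathway, and 1 of its hairpins lies in an intron of Hnrnpk. It had 343, 324 and 227 CPM in MM3MG and 2784, 2162 and 2220 CPM in MM3MG-Her2, a log2 fold change of 2.90 (SE 0.18, adjusted p = 8.9e-09). miR-132-3p and miR-212-3p, 2 neighbours on chromosome 11 that CREB induces, rose together. miR-132-3p had 193, 313 and 344 CPM in MM3MG and 1440, 1449 and 1530 CPM in MM3MG-Her2 (2.28, SE 0.18, adjusted p = 1.2e-07). miR-212-3p went from 6.29 ± 3.37 to 100 ± 32.9 CPM (3.73, SE 0.48). It had 8 reads over the MM3MG libraries and was tested because of its reads in MM3MG-Her2. miR-210-3p, induced by hypoxia, rose from 1361 ± 69.5 to 3048 ± 210 CPM (1.06), and miR-378a-3p, counted jointly with miR-378c and hosted by a metabolic coactivator gene, from 6253 ± 423 to 12359 ± 197 CPM (0.88). miR-31-5p, known for limiting breast cancer metastasis, rose from 4901 ± 513 to 7326 ± 306 CPM (0.48, SE 0.12, adjusted p = 0.0025).

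miR-21a-5p, an oncogenic miRNA that lowers Pdcd4 and whose hairpin overlaps an exon of Vmp1 (GRCm38 chr11:86584067-86584158), took the largest absolute gain. It had 207944, 186932 and 210887 CPM in MM3MG and 268123, 296495 and 317768 CPM in MM3MG-Her2 (0.44, SE 0.14, adjusted p = 0.013). When whole inserts had to match the hairpin, the log2 fold change was 0.31 and no longer passed (adjusted p = 0.059). Its passenger arm miR-21a-3p rose from 391 ± 66.1 to 874 ± 21.5 CPM (1.06). The 10 most abundant miRNAs held 62.2% ± 0.758 of miRNA reads in MM3MG and 67.1% ± 1.02 in MM3MG-Her2, and miR-21a-5p alone 20.2% ± 1.31 and 29.4% ± 2.49, both without overlap (exact permutation test, p = 0.1). Where 1 miRNA takes a larger share, the CPM of the others is lower.

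Abundant miRNAs of mesenchymal and stromal cells fell, with 7 of 10 tested arms of that list down, 0 up and a median of −0.91. miR-143-3p had 125340, 95225 and 91470 CPM in MM3MG and 63802, 60612 and 59863 CPM in MM3MG-Her2 (−0.87, SE 0.16, adjusted p = 0.00022). miR-199a-3p and miR-199b-3p, which are read jointly, had 51914, 91453 and 81071 CPM against 41064, 40350 and 41686 CPM (−0.95, SE 0.16). In the fit with the 3 TUBO cell libraries that joint change was −0.86 and did not pass (adjusted p = 0.16). miR-199a-5p fell from 2939 ± 680 to 1028 ± 105.8 CPM (−1.63), miR-152-3p from 2296 ± 297 to 986 ± 78.3 CPM (−1.32) and miR-214-3p from 2048 ± 124.8 to 1327 ± 79.6 CPM (−0.73). miR-145a-5p had 1217, 458 and 423 CPM in MM3MG and 411.9, 320 and 348 CPM in MM3MG-Her2 and did not pass (−1.08, adjusted p = 0.13), while it passed at −0.38 without MM3MG replicate 1 (adjusted p = 0.019) and at −1.30 without MM3MG replicate 3 (adjusted p = 0.043).

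Other abundant falls were spread over families. The sensory cluster of miR-183, miR-96 and miR-182 fell in 3 of 3 tested arms (median −1.53). miR-182-5p had 31036, 29446 and 30647 CPM in MM3MG and 12996, 10979 and 9982 CPM in MM3MG-Her2 (−1.53, SE 0.13, adjusted p = 2.1e-07), and miR-183-5p went from 2829 ± 354 to 1039 ± 89.9 CPM (−1.56). miR-101a-3p, known to lower Ezh2 and read jointly with miR-101c, had 25758, 22685 and 18870 CPM against 7905, 7418 and 6866 CPM (−1.71, SE 0.15). miR-22-3p went from 24136 ± 528 to 11784 ± 195.5 CPM (−1.14). Of the miR-29 family, which lowers collagen mRNAs, 3 of 4 tested arms fell, among them miR-29a-3p from 13328 ± 1704 to 6761 ± 189 CPM (−1.09). Of the miR-23/27/24 clusters, 5 of 7 arms fell and 1 rose (median −0.75): miR-27b-3p went from 4646 ± 320 to 2282 ± 24.8 CPM (−1.13), while miR-27a-5p rose by 1.12 on the log2 scale.

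The let-7 family, which restrains Ras, Myc and Hmga2, split. Of 15 tested arms, 3 rose and 4 fell (median −0.03), and the seed family as a whole had 146532 ± 5896 CPM in MM3MG and 120917 ± 6964 CPM in MM3MG-Her2 (−0.14, adjusted p = 0.23). let-7i-5p fell, with 59776, 46382 and 50609 CPM against 29638, 27302 and 26276 CPM (−1.03, SE 0.15, adjusted p = 2.8e-05). let-7b-5p fell by 0.73, and let-7e-5p rose from 3290 ± 148 to 5295 ± 208 CPM (0.58). The remaining let-7 calls did not hold in every fit that left a library out. let-7c-5p lost its call (−0.43) without MM3MG replicate 2, MM3MG-Her2 replicate 2 or 3 (−0.34, −0.28 and −0.35), and let-7b-3p (0.72) without MM3MG replicate 2 or MM3MG-Her2 replicate 1 or 3 (0.52, 0.70 and 0.64). miR-98-5p (0.48) did so without MM3MG replicate 2 or 3 or MM3MG-Her2 replicate 3 (0.46, 0.39 and 0.40), and let-7i-3p (−1.11) without MM3MG-Her2 replicate 1 (−0.82).

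The progesterone receptor aim of the study bears on 12 tested miRNAs that have been proposed as regulators of that receptor, and they divided into 4 that rose and 7 that fell (median −0.53). Summed over the list, their levels overlapped, at 93659 to 116314 CPM in MM3MG and 96567 to 103448 CPM in MM3MG-Her2. miR-30a-5p, from chromosome 1, had 13848, 13209 and 13740 CPM in MM3MG and 34932, 31526 and 29917 CPM in MM3MG-Her2 (1.13, SE 0.12, adjusted p = 2.1e-06). miR-30e-5p in Nfyc went from 4813 ± 435 to 9902 ± 775 CPM (0.94). miR-30b-5p and miR-30d-5p, neighbours on chromosome 15, fell from 852 ± 190 to 389 ± 61.3 CPM (−1.25) and from 10866 ± 2253 to 7474 ± 492.8 CPM (−0.64), although they share the seed of miR-30a-5p. Over both arms of the miR-30 hairpins, 6 of 9 tested arms rose and 2 fell (median 0.86), and the miR-30 seed family rose from 30775 ± 2585 to 50845 ± 3835 CPM (0.85, SE 0.11, adjusted p = 3.9e-06). miR-30c-5p went from 661 ± 159 to 970 ± 112 CPM (0.46) and did not pass without MM3MG replicate 2 (0.49) or MM3MG-Her2 replicate 1 (0.37).

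miR-181a-5p, known to set the sensitivity of T cell receptor signaling, fell from 33367, 39973 and 43801 CPM to 16590, 17969 and 17618 CPM (−1.27, SE 0.13, adjusted p = 1.1e-06). Its seed family fell by 0.78 on the log2 scale, and miR-181b-5p of that family had 4382 ± 1163 and 5652 ± 286 CPM (0.27, adjusted p = 0.14). miR-26a-5p fell from 22329 ± 2530 to 10685 ± 109 CPM (−1.16), and miR-26b-5p from 3174 ± 770 to 2510 ± 155.02 CPM with overlap (−0.43), a call lost without MM3MG replicate 2 or any 1 of the MM3MG-Her2 libraries (−0.25, −0.41, −0.28 and −0.42). miR-9-5p, a miRNA of neural tissue that is also known to lower E-cadherin, had 329.2, 302.6 and 302.5 CPM in MM3MG and 91.1, 108 and 97.0 CPM in MM3MG-Her2 (−1.75, SE 0.20, adjusted p = 3.5e-06). Of 4 tested miRNAs known to bind ErbB receptor mRNAs, 1 rose and 2 fell. Besides miR-7a-5p and miR-22-3p these were miR-125b-5p, which fell from 7421 ± 1165 to 4420 ± 120 CPM (−0.86), and miR-125a-5p, which overlapped at 4269 ± 802 and 4817 ± 559 CPM (adjusted p = 0.64).

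Among the remaining families, miR-99, miR-100 and miR-125, which share a set of polycistrons with let-7, had 7 of 11 tested arms up and 1 down (median 0.48). Of the 7 rises, 6 lay on 3p arms, with miR-125a-3p going from 16.4 ± 7.90 to 89.2 ± 37.3 CPM (2.31), miR-100-3p from 11.0 ± 0.993 to 48.8 ± 11.6 CPM (2.02) and miR-99b-3p from 231 ± 22.8 to 733 ± 75.1 CPM (1.56). miR-125a-3p and miR-100-3p had only 19 and 13 reads over the MM3MG libraries. Both were tested because of their reads in MM3MG-Her2, so a rise was the change that the filter let through. On the 5p arms, miR-99b-5p rose from 5123 ± 727 to 7692 ± 377.6 CPM (0.48, SE 0.14), and miR-100-5p and miR-99a-5p overlapped between the lines (adjusted p = 0.33 and 0.45). The miR-34 family, a set of p53 targets, had 3 tested arms, and 0 passed in edgeR (adjusted p = 0.10, 0.59 and 0.65). miR-34c-5p, its most abundant arm, had 2025 ± 69.7 and 2063 ± 134 CPM (−0.08, SE 0.12). miR-206-3p of skeletal muscle rose from 134 ± 54.9 to 256 ± 36.5 CPM (0.85) and did not pass without MM3MG replicate 2 (0.72). miR-199b-5p, a member of the stromal list above, fell by 0.48 on the log2 scale, a call lost without MM3MG replicate 3 or MM3MG-Her2 replicate 2 or 3 (−0.44, −0.36 and −0.27). Of the miRNAs of blood cells and serum, 1 was tested and fell, and the list summed to 985 to 1154 CPM in MM3MG and 651 to 775 CPM in MM3MG-Her2. Of 4 tested neuronal miRNAs, 1 fell, miR-138-5p, and 0 rose. The Sfmbt2 cluster had 2 tested entries, and 0 passed (adjusted p = 0.40 and 0.92).

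Some entries of the miRNA annotation resemble repeats or fragments of other RNA, and all 5 of these that were tested rose (median 2.93). Entries such as miR-5126 and miR-6539-5p were tested because of their reads in MM3MG-Her2, so a rise was the change that the filter let through. The sum over all 16 entries with reads does not depend on that filter. It was 201 to 259 CPM in MM3MG and 1326 to 1604 CPM in MM3MG-Her2. miR-6539-5p, in an intron of Dock5, had 16.6, 17.9 and 11.2 CPM in MM3MG and 390, 416 and 342 CPM in MM3MG-Her2 (4.51, SE 0.25). miR-5126 had 2 reads over the MM3MG libraries and 77 over MM3MG-Her2, 67.1 times as many per miRNA read (95% interval 18 to 564). miR-6236-5p rose by 2.93, a joint entry of miR-3473a, miR-3473b, miR-3473e and miR-690 by 2.25, and miR-6240-3p by 1.99. When whole inserts had to match, miR-6236-5p stood at 3.80, and with inserts of 20 to 24 bases miR-6240-3p stood at 0.93. Beside them, reads on no named hairpin made up 47.8% ± 2.43 of MM3MG-Her2 libraries and 23.2% ± 3.71 of MM3MG libraries. Their part in these 5 rises was not tested.

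The balance of the 2 arms of a hairpin was tested within libraries, which sets aside the level of a hairpin that has a single copy. Copies that share an arm were joined, here for miR-125b, miR-181a, miR-26a and miR-30c. For these, a change in the level of one copy against the other can also move the ratio, and that part was not tested. Of 96 hairpins with at least 20 reads on each arm, 27 shifted (28.1%), 15 toward the 3p arm and 12 toward the 5p arm. The hairpins named here are the 5 largest shifts each way among those that passed with at least 100 reads on each arm. For miR-125b, the 3p arms held 8.17%, 10.8% and 10.2% of the joined hairpins' reads in MM3MG and 24.9%, 22.8% and 22.2% in MM3MG-Her2, a log2 change of the arm ratio of 1.503 (SE 0.23, adjusted p = 2.4e-05). In CPM, miR-125b-5p fell while miR-125b-1-3p rose from 446 ± 21.1 to 855 ± 146 CPM. For miR-181a the 3p arms rose from 1.53% ± 0.105 to 4.97% ± 0.626 (1.75, SE 0.23, adjusted p = 3.7e-06), with both copies of the hairpin joined. Of their 3p arms, miR-181a-2-3p rose from 140 ± 17.1 to 340 ± 27.2 CPM, and miR-181a-1-3p had 463 ± 78.9 and 567 ± 80.5 CPM and did not pass (0.19, adjusted p = 0.32). The 3p arms of miR-26a (1.63), let-7b (1.47) and miR-30c (1.21) also gained. The other way, the 3p arm of miR-450b went from 76.8% ± 5.82 to 45.9% ± 3.04 of its reads (−1.81, SE 0.43), so that the 5p arm came to hold more than the 3p arm. miR-27a (−1.75), miR-148a (−1.51), miR-221 (−1.26) and miR-17 (−1.21) shifted the same way. The shift of miR-17 did not pass without MM3MG-Her2 replicate 1 (−0.995), and that of miR-221 did not pass among inserts of 20 to 24 bases (−0.30). The arm shares of the 2 lines did not overlap in any of these 10 hairpins. They were picked as the largest shifts that passed, a choice that favours such separation, and the share over all 96 hairpins is not given here. Over all hairpins with both arms read, the minor arms held 1.60% ± 0.0213 of those hairpins' reads in MM3MG and 1.69% ± 0.0743 in MM3MG-Her2, with overlap (exact permutation test, p = 0.2).

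**Figure D4:**
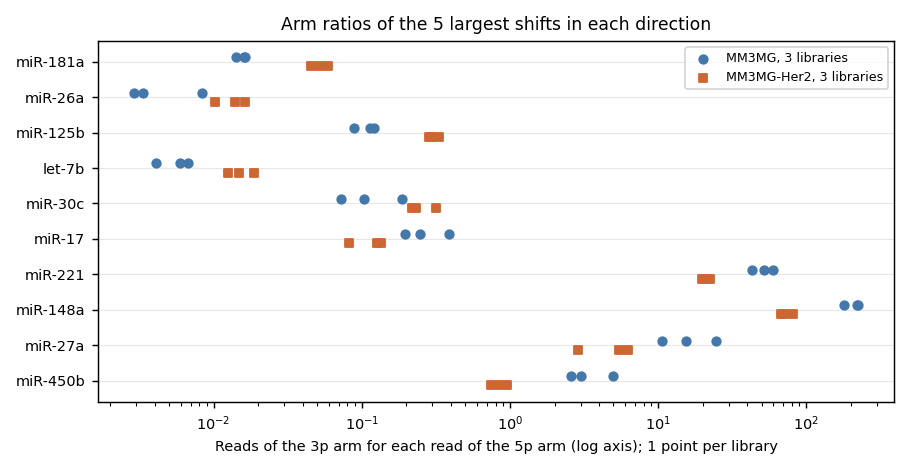
Reads of the 3p arm for each read of the 5p arm (log axis) in each library, for the 5 hairpins that shifted most toward the 3p arm (upper rows) and the 5 that shifted most toward the 5p arm (lower rows), among those that passed with at least 100 reads on each arm. The largest shift in share among these 10 was that of miR-450b, from 76.8% to 45.9% of reads on the 3p arm.

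The ends of the miRNA reads differed as well. Inserts of 18 to 20 bases made up 5.20% ± 0.486 of miRNA reads in MM3MG and 2.82% ± 0.233 in MM3MG-Her2, inserts of 21 bases 15.6% ± 0.601 and 8.54% ± 0.189, and inserts of 24 to 26 bases 9.85% ± 0.910 and 16.5% ± 1.08. None of these overlapped (exact permutation test, p = 0.1 each). Among all reads the short class went the other way, with 10.2% ± 1.15 at 18 to 20 bases in MM3MG and 16.1% ± 1.71 in MM3MG-Her2. Insert length was also compared within single miRNAs. Among the 73 miRNAs with at least 100 reads in every library, the mean length of inserts with no added base was higher in MM3MG-Her2 without overlap for 48 (65.8%) and lower for 3 (4.11%), with a median difference of 0.11 bases. With added bases included, the counts were 40 (54.8%) and 5 (6.85%). These per-miRNA measures were added after values had been seen and carry no test. miR-182-5p moved most, from a mean of 23.2, 23.2 and 23.3 bases in MM3MG to 24.3, 24.4 and 24.2 bases in MM3MG-Her2. When inserts were kept to 20 to 24 bases, its log2 fold change was −2.44 in place of −1.53. miR-181a-5p followed with 22.95 ± 0.0580 and 23.6 ± 0.0230 bases, and miR-30a-5p had 23.1 ± 0.0392 and 23.5 ± 0.0143 bases. miR-210-3p was among the 3 with shorter inserts in MM3MG-Her2 (22.2 ± 0.121 to 21.96 ± 0.0413 bases).

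**Figure D5:**
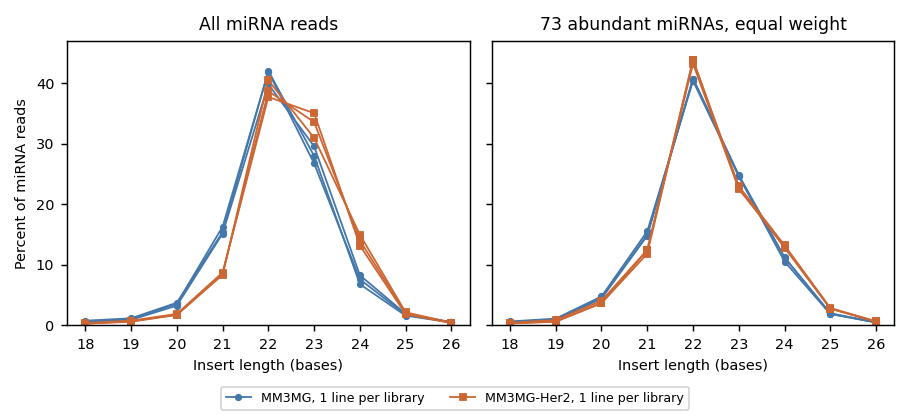
Percent of miRNA reads at each insert length in bases, with 1 line per library, for all miRNA reads (left) and for the 73 abundant miRNAs with equal weight (right). In both panels the MM3MG-Her2 lines lie below those of MM3MG at 21 bases and above them at 24 bases.

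Added bases at the 3′ end, which terminal uridyl and adenyl transferases attach, differed too. Reads with an added U made up 11.3% ± 0.804 of miRNA reads in MM3MG and 6.87% ± 0.334 in MM3MG-Her2, and reads with an added A 4.73% ± 0.355 and 5.84% ± 0.281, both without overlap (exact permutation test, p = 0.1). These shares pool all miRNA reads, so they also move with the mix of miRNAs, and that part was not tested. Of the 73 miRNAs, 30 had a lower share of added U in MM3MG-Her2 without overlap (41.1%) and 5 a higher one (6.85%). The median difference within single miRNAs was −0.547 percentage points, smaller than that of the pooled share. On miR-125b-1-3p the share of reads with an added U went from 33.1%, 28.3% and 30.4% to 15.3%, 16.8% and 15.9%. On miR-199a-5p that share went from 16.6% ± 1.99 to 27.4% ± 4.09. For added A, 18 had a higher share (24.7%) and 13 a lower one (17.8%), with a median difference of 0.0907 percentage points. Reads that began at another base than the usual 5′ end, which changes the seed, went from 7.37% ± 0.235 to 5.47% ± 0.123 of miRNA reads (no overlap, exact permutation test, p = 0.1). This pooled share was not compared within single miRNAs. The part of read length and base composition in the fold changes was not tested. Over the 50 tested miRNAs whose most frequent insert had 18 to 21 bases the median log2 fold change was 0.01, over the 121 with 22 bases −0.07, and over the 58 with 23 to 26 bases −0.10. Over the 41 with a GC content under 40% it was 0.07, over the 94 from 40% to under 50% it was −0.33, and over the 94 with 50% or more it was 0.16.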

How the data were processed

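Per the labels' protocols, TRIzol total RNA received 3′ and 5′ adapters by ligation, and the product was reverse transcribed, amplified by PCR and cut from a gel at the size of miRNA inserts, with no molecular identifiers named. The deposited values are counts: the authors listed each distinct insert sequence with its number of reads. Which trimming tool, aligner and build they used was not given in the sources used here.

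Inserts of 18 to 26 bases were matched to 1174 named mouse hairpins of GENCODE M21 (GRCm38): the first 18 bases had to match, with at most 2 differences in the rest. Arms were placed by folding with RNAfold 2.7.2. Arms sharing at least 50% of their reads were joined (25 joint names). RefSeq held a mature name for 664 of the 689 arms. Near-identical paralogs remain uncertain.

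Counts were tested in R 4.3.3 with edgeR 4.0.16 (TMM, filterByExpr, robust quasi-likelihood fit, group only) on the 6 libraries, over miRNAs, seed families and arm ratios (each library as a block), with Benjamini-Hochberg adjustment. The fits were tested on simulated data. Replicates differed by more than sampling noise. Chi-square over degrees of freedom was 14.5 to 42.95 between MM3MG libraries, with the 2 highest values in the pairs that hold replicate 1. Between MM3MG-Her2 libraries it was 3.96 to 7.51. This measure grows with depth, and the MM3MG libraries had more miRNA reads, so the 2 ranges are not directly comparable. Named miRNAs are the 10 largest rises and falls with at least 100 CPM and no overlap, the 10 largest CPM differences, members of fixed lists, and the 5 largest changes each way of seed families with at least 1000 CPM and of hairpins with at least 100 reads on each arm. The miRNAs and lists were chosen with earlier results of these data known. Shares were compared by exact two-sided permutation tests. A miRNA with 0 reads in a group was given a floor of 3 reads over the group, and ratios with 1 to 3 reads a 95% exact binomial interval, which cover counting error only. Alternatives were other scalings, no filter, DESeq2 1.42.0, the 9 cell libraries, other match rules and lengths, a replicate block, and leaving out each library.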

Additional observations from a re-analysis of the deposited data

Results flagged for a closer look

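Reads outside the miRNA counts stood above their level in the parental line. Inserts on no named miRNA hairpin made up 49.9%, 45.1% and 48.3% of reads in the 3 MM3MG-Her2 libraries (mean 47.8%) and 27.5%, 21.4% and 20.8% in MM3MG (exact permutation test, p = 0.1, the smallest possible). Most matched no annotated transcript of GENCODE M21, which holds no complete ribosomal precursor: 39.6% ± 2.28 of reads in MM3MG-Her2 and 16.4% ± 2.06 in MM3MG. Annotated classes did not all follow. Fragments of snoRNA went from 2.61% ± 0.405 to 1.45% ± 0.117 of reads, mitochondrial fragments from 1.15% ± 0.341 to 0.246% ± 0.0072, and fragments of long noncoding RNA from 0.727% ± 0.179 to 3.21% ± 0.226, each without overlap.

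Among the unmatched inserts, a set of sequences that had at least 100 reads in each MM3MG-Her2 library and at most 10 in each MM3MG library held 23.8% of the unmatched reads of MM3MG-Her2, while 0 sequences had the opposite pattern. They held 45399, 40255 and 34869 reads in the MM3MG-Her2 libraries and 101, 134 and 118 reads in MM3MG, had 18 to 32 bases, and had a GC content of 77.6% weighted by reads. Their source was not assigned. Groups of 3 libraries were not screened for single outlying libraries.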

How the results depend on the processing

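Of the 157 miRNAs that differed, 0 changed sign under any alternative run. The number that differed was 148 to 172 when a library was left out, 167 with DESeq2, 175 with the 9 cell libraries and 148 when whole inserts had to match. These totals come from different numbers of tested miRNAs, 689 with DESeq2 against 229 in the main fit. They do not count how many of the 157 passed again. In each of these runs, some of the 157 did not pass or were not tested. The replicate numbers do not pair the samples (correlations of same-numbered deviations of −0.03, 0.05 and −0.07). With a replicate block, 160 miRNAs and 132 seed families differed, and all 157 miRNAs were among the 160. The median of all tested miRNAs was 0.03 without scaling, −0.35 without the filter, −0.26 with DESeq2 and 0.03 without MM3MG-Her2 replicate 2. miR-10a-5p, which did not pass, turned sign at 0.010 with upper-quartile scaling, 0.041 without scaling and 0.047 with the 9 cell libraries, and lay between −0.145 and 0.120 when a library was left out (above 0 without MM3MG replicate 1 or MM3MG-Her2 replicate 2 or 3). miR-19b-3p lay between −0.095 (without MM3MG replicate 3) and 0.773 in those fits. Without the filter, 98 of 579 seed families fell in place of 63 of 178. With at least 100 reads on each arm, 7 of 46 hairpins shifted toward the 5p arm in place of 12 of 96. When whole inserts had to match, the difference in miRNA share was −18.7 percentage points in place of −24.4, that in miRNA inserts of 18 to 20 bases −2.95 in place of −2.38, and that in the share of the 10 most abundant miRNAs 3.26 in place of 4.85, which was 5.96 with inserts of 20 to 24 bases. The cause of these moves was not tested. Depth limits the size of the chromosome 12 falls, since few reads remain there in MM3MG-Her2.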
